A study of Homo sapiens with 8 samples.

Results

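The genes described here encode assembly, export and release factors of the 60S ribosomal subunit, the larger part of the ribosome. They are a list of 48 gene symbols, named for their known roles by a rule that uses no measured value, although the list was drawn up with earlier results of these data known. The symbols were matched to the Ensembl gene IDs of the read count table through a table of gene names. Of the 48, 47 were found among the 17546 genes of the table; DDX24 was not analysed here. The cells were H1, a human embryonic stem cell line, in 2 groups of 4 libraries each. The NAT10 knockdown group had received lentivirus with an shRNA against NAT10, and the control group lentivirus with a negative control shRNA. All cells of both groups were transduced with a GFP-marked vector, kept for 48 h, enriched for GFP and expanded in TeSR-E8 with 0.5 ug/ml puromycin. The groups are therefore selected populations of 1 cell line, and no rescue group was among the samples. NAT10 is the acetyltransferase that makes N4-acetylcytidine in RNA, and in the nucleolus it acts on small-subunit rRNA. The question was which of the large-subunit factors differ in RNA between the groups, and by how much.

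The large subunit begins in the nucleolus, where proteins fold around the precursor of the rRNAs. RNA helicases, GTPases and AAA ATPases then remodel the particle, a nuclease removes the second internal transcribed spacer (ITS2), and the particle leaves the nucleus with the adaptor NMD3. In the cytoplasm placeholder proteins and the joining inhibitor EIF6 come off before the subunit can translate. Pluripotent cells grow and divide fast, and GNL3, also called nucleostemin, is known for its high level in stem cells.

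Poly(A) RNA was sequenced to between 15574631 and 16305014 reads on the genes of the table per library. The deposited values are read counts divided by a size factor per library, called scaled counts below. NAT10, the target of the shRNA, had 1647, 1592, 1625 and 1644 scaled counts in knockdown libraries, against 2207, 2285, 2048 and 2173 in control libraries. The groups did not overlap, and the mean in knockdown libraries was 74.7% of that in control libraries (log2 fold change -0.42 ± 0.0378 SE, adjusted p = 5.88e-14). At an adjusted p below 0.05 by limma, 32.3% of all genes rose and 32.4% fell. Of 12 pluripotency markers all 12 were measured, of which 9 rose and 0 fell. Their summed scaled counts lay between 147298 and 151839 in knockdown and between 117308 and 121268 in control libraries. DNMT3B held the most, with means of 49902 in knockdown and 36393 in control libraries. POU5F1 stood apart at 17.2 ± 7.11 in knockdown and 24.0 ± 5.63 in control libraries (SD, n = 4 each). POU5F1 has near-identical pseudogene copies, and how reads that match several places were counted is not given in the sources used here, so its level is uncertain. Of 14 fibroblast and mesenchymal markers 10 were measured of which 7 rose and 1 fell, with sums between 34131 and 36624 in knockdown and between 25954 and 26857 in control libraries, while COL3A1, DCN, LUM and FAP were not analysed here. Of 8 markers each, 4 neuroectoderm genes were measured and 2 rose (sums 11746 to 12159 in knockdown and 5341 to 5657 in control libraries, mostly NES). Both of the 2 measured mesendoderm genes rose (107 to 131 in knockdown, 59.7 to 63.8 in control), as did 2 of the 3 measured trophoblast and amnion genes (455 to 504 in knockdown, 301 to 346 in control). The part of these markers in the results below was not tested. In RNA from whole cultures, fewer cells of a type and less RNA per cell cannot be told apart. Whether replicates came from separate cultures is not labelled; p-values below cover the spread among the 8 libraries, which may be technical.

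Assembly factors of the large subunit were mostly higher in knockdown cells, by modest amounts. Of the 47 measured, 35 were higher and 3 lower in knockdown cells by limma at an adjusted p below 0.05, and 9 did not pass. Over all 17546 genes the same test called 32.3% higher and 32.4% lower. The edgeR quasi-likelihood test on recovered reads also called 35 higher and 3 lower, against 32.0% and 33.2% of the genes it kept. The median log2 fold change was 0.29 over the 47 genes and 0.0013 over all genes. No rise reached 2-fold in the group means: 13 of the 35 were under 1.25-fold, 15 between 1.25- and 1.5-fold and 7 between 1.5- and 2-fold. All 4 knockdown libraries lay above all 4 control libraries for 33 genes and below them for 1, and the groups overlapped for 13. Over all genes, 28.4% lay entirely above and 28.3% entirely below. The 47 genes together took 0.520% ± 0.00499 of the reads in knockdown libraries and 0.476% ± 0.00373 in control libraries (SD, n = 4 each).

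**Figure D1:**
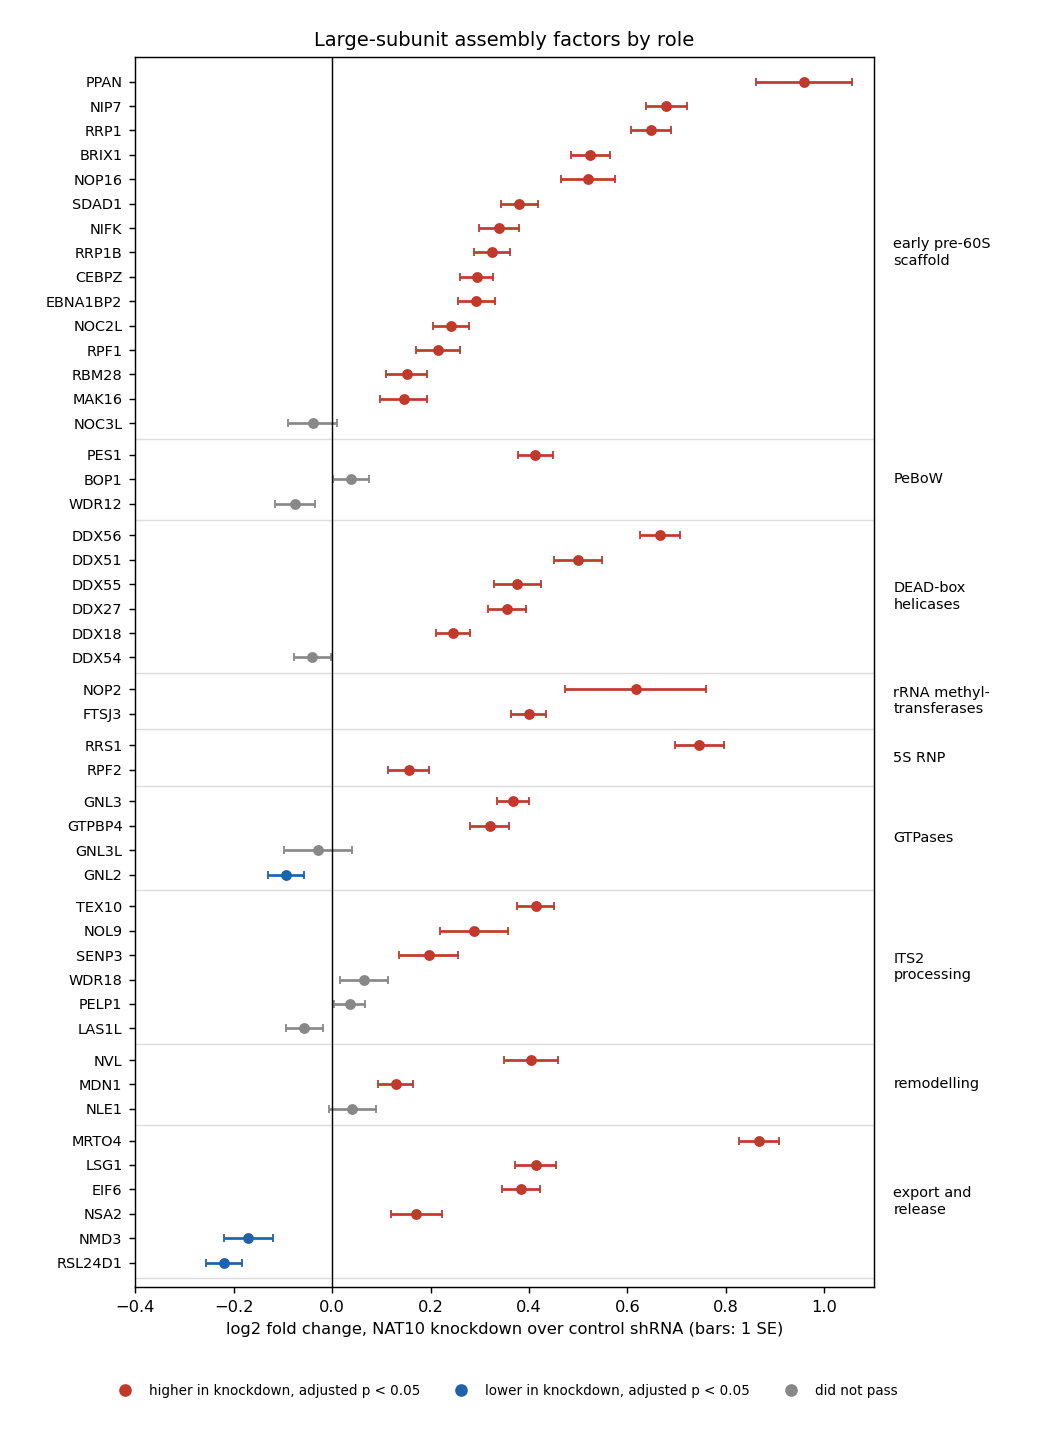
Each point is the log2 fold change of 1 gene, knockdown over control, with a bar of 1 standard error, grouped by role; red genes rose, blue genes fell and grey genes did not pass at an adjusted p under 0.05. Changes ran from -0.22 for RSL24D1 to 0.96 for PPAN, and 14 of 15 genes of the early scaffold group rose.

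These directions are relative to the size factors in the deposited values. Scaling by the read totals of the libraries moved the median of all genes by -0.11 on the log2 scale and the median of the 47 genes to 0.18, and then 29 rose and 8 fell, against 23.2% and 41.9% of all genes. The 6 rises lost were those of MAK16, RBM28, RPF2, SENP3, MDN1 and NSA2. The 5 further genes called lower were NOC3L, WDR12, DDX54, LAS1L and PELP1.

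Of 15 structural and RNA-binding proteins grouped here as early scaffold, 14 rose and 0 fell, with a median log2 fold change of 0.32. The group is a broad one and also holds NIP7, which acts in late nucleolar processing. The largest change of the whole set was in PPAN, the human counterpart of the yeast assembly factor Ssf1. PPAN (chromosome 19, 10106289 to 10111634, plus strand) had 180, 174, 193 and 191 scaled counts in knockdown libraries, against 80, 94, 104 and 100 in control libraries. Every knockdown library was above every control library, and the log2 fold change was 0.96 ± 0.0971 SE (adjusted p = 2.46e-12). Its count is low beside the other members, and 59.8% of its exon bases in GENCODE 29 are shared with other genes, among them the read-through gene PPAN-P2RY11. P2RY11, a receptor gene downstream of it, averaged 123 scaled counts in knockdown and 45.3 in control libraries, and its part in the PPAN value was not tested. How reads in shared exons were counted is not given in the sources used here.

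NIP7, a factor of late nucleolar rRNA processing, averaged 1322 ± 23.1 scaled counts in knockdown libraries, against 825 ± 29.3 in controls (log2 fold change 0.68). RRP1, counterpart of a yeast factor of the same name, averaged 1483 ± 39.5 in knockdown libraries, against 946 ± 28.9 in controls (SD, n = 4 each), a log2 fold change of 0.65. Its paralog RRP1B, on the same strand of chromosome 21, changed by 0.32. BRIX1, which has given its name to the Brix domain, and NOP16 rose by 0.52 each. The remaining risers were SDAD1 (0.38), NIFK, which binds the proliferation marker Ki-67 (0.34), CEBPZ and EBNA1BP2 (0.29 each), NOC2L (0.24), RPF1 (0.22), RBM28 (0.15) and MAK16 (0.15), the last not called without control replicate 4 (limma adjusted p = 0.0625). NOC3L did not pass: it had 640, 700, 669 and 704 scaled counts in knockdown libraries, against 724, 681, 731 and 654 in controls, and the ranges overlapped (log2 fold change -0.04, adjusted p = 0.500). NOC2L and CEBPZ, the human counterparts of the yeast partners Noc2 and Noc1, both rose.

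**Figure D2:**
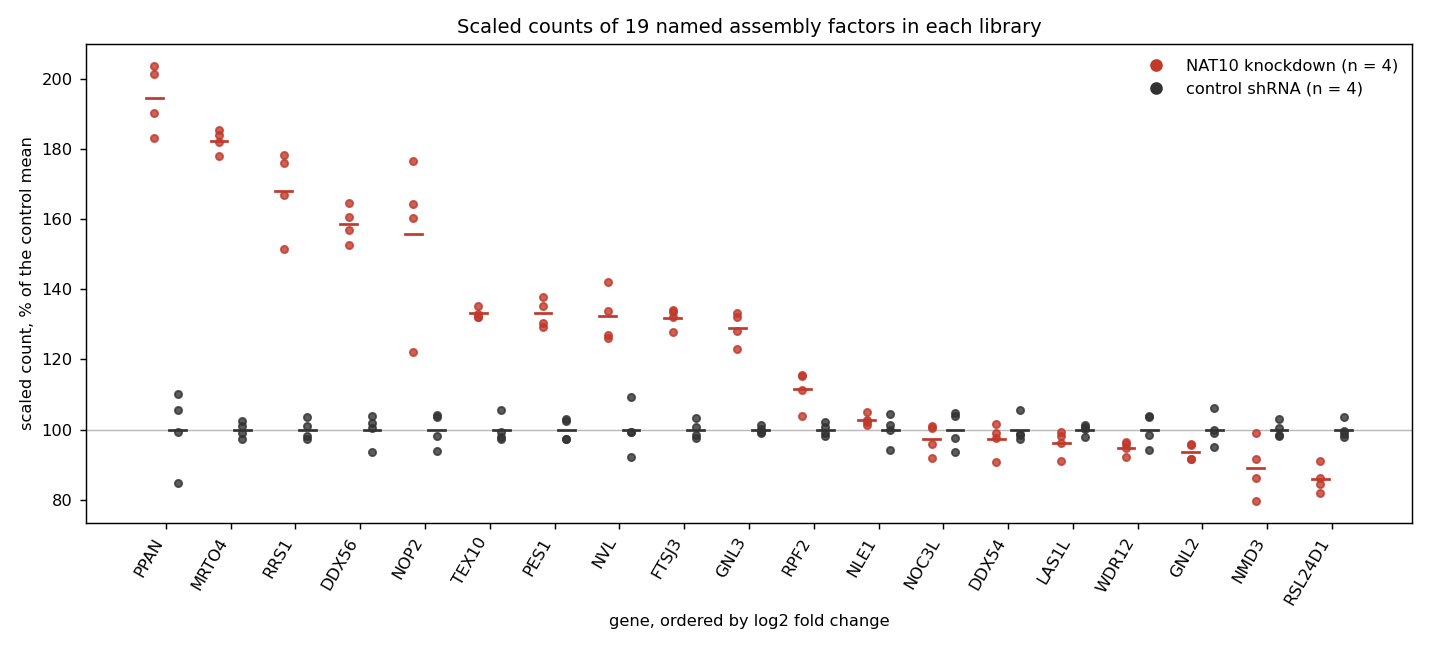
Scaled counts in each library as a percentage of the control mean, for the genes with the largest and the smallest change in each role group and those that fell or changed by at least 0.7 on the log2 scale; short lines are group means. Knockdown means run from 195% of the control mean for PPAN to 85.9% for RSL24D1.

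PES1, BOP1 and WDR12 form the PeBoW complex, which is needed for maturation of the rRNAs on either side of ITS2, and only PES1 passed. PES1 had 3186, 3395, 3210 and 3334 scaled counts in knockdown libraries, against 2523, 2539, 2398 and 2398 in control libraries. The groups were separate, with a log2 fold change of 0.41 ± 0.0351 SE (adjusted p = 8.46e-15). BOP1 averaged 2135 ± 62.3 in knockdown and 2079 ± 69.3 in control libraries (log2 fold change 0.04, adjusted p = 0.371). WDR12 had 1318, 1303, 1266 and 1327 scaled counts in knockdown libraries, against 1296, 1422, 1428 and 1353 in controls, with overlapping ranges (log2 fold change -0.08, adjusted p = 0.0966; adjusted p = 0.0323 without control replicate 1). The ratio of 2 genes within a library does not depend on how libraries are scaled to each other. WDR12 stood at 0.414, 0.384, 0.394 and 0.398 of PES1 in knockdown libraries, and at 0.514, 0.560, 0.596 and 0.565 of it in control libraries. BOP1 stood at 0.605 to 0.690 of PES1 in knockdown and at 0.784 to 0.876 in control libraries. Both ratios were lower in each knockdown library than in any control library (two-sided exact permutation p = 0.0286, the smallest that 4 against 4 libraries can give; adjusted p = 0.0429 over 15 pairs).

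DEAD-box helicases use ATP to unwind or rearrange RNA, and 5 of the 6 measured here rose, with 0 lower. DDX56, counterpart of yeast Dbp9, had 1849, 1763, 1716 and 1806 scaled counts in knockdown libraries, against 1146, 1168, 1052 and 1129 in controls. The lowest knockdown library was far above the highest control library (log2 fold change 0.67 ± 0.0405 SE, adjusted p = 3.67e-20). DDX51 rose by 0.50, DDX55 by 0.38, DDX27 by 0.36 and DDX18 by 0.25. DDX54 had 2237, 2051, 2204 and 2292 in knockdown libraries, against 2381, 2224, 2195 and 2228 in controls. Its ranges overlapped, and the log2 fold change of -0.04 was not called (adjusted p = 0.359).

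Both rRNA methyltransferases rose. FTSJ3, counterpart of the yeast ribose methyltransferase Spb1, had 2562, 2534, 2455 and 2573 scaled counts in knockdown libraries, against 1931, 1985, 1874 and 1887 in controls (log2 fold change 0.40, adjusted p = 5.11e-14). NOP2, which places 5-methylcytosine on large-subunit rRNA, had 78, 54, 71 and 73 in knockdown and 44, 42, 46 and 46 in control libraries (log2 fold change 0.62 ± 0.143 SE, adjusted p = 0.000195). Neither gene overlapped between groups. NOP2 was counted lowest per exon length of all 47 genes, and 54.4% of its exon bases are shared with the annotated gene AC006064.6 on the same strand, so its level is uncertain.

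RRS1 and RPF2 act together to bring the 5S rRNA with RPL5 and RPL11 into the particle, and both rose, RRS1 by more. RRS1 had 1066, 917, 1010 and 1080 scaled counts in knockdown libraries, against 611, 590, 627 and 594 in controls. It was 68.2% higher, with no overlap (log2 fold change 0.75 ± 0.0490 SE, adjusted p = 7.27e-19). RPF2 had 1269, 1224, 1144 and 1273 in knockdown and 1091, 1109, 1081 and 1123 in control libraries, 11.5% higher (log2 fold change 0.16, adjusted p = 0.00110). RRS1 stood at 0.749 to 0.883 of RPF2 in knockdown libraries, against 0.529 to 0.581 in controls (exact permutation p = 0.0286; adjusted p = 0.0429). That difference between the partners, 0.59 on the log2 scale, was the largest of the 15 ratios.

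The GTPases divided, with 2 higher, 1 lower and 1 that did not pass. GNL3, nucleostemin, had 4684, 4720, 4360 and 4541 scaled counts in knockdown libraries, against 3523, 3595, 3552 and 3508 in controls (log2 fold change 0.37 ± 0.0330 SE, adjusted p = 5.31e-14). GTPBP4, counterpart of yeast Nog1, rose by 0.32. GNL3L, the closest relative of GNL3 in the set, averaged 512 ± 30.0 in knockdown and 525 ± 69.4 in control libraries (log2 fold change -0.03, adjusted p = 0.734). Within libraries GNL3L stood at 0.102 to 0.120 of GNL3 in knockdown and at 0.130 to 0.168 in control libraries, without overlap (exact permutation p = 0.0286; adjusted p = 0.0429). GNL2, counterpart of yeast Nog2, had 2789, 2661, 2662 and 2785 in knockdown libraries, against 2877, 3089, 2765 and 2904 in controls. These ranges overlapped and the decrease was 6.36% (log2 fold change -0.09 ± 0.0360 SE, adjusted p = 0.0200). This call was lost without control replicate 2 (adjusted p = 0.136), without knockdown replicate 2 (0.0526) and without knockdown replicate 3 (0.0563), and its adjusted p reached 0.136 over the 17 alternative fits.

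ITS2 is cut by the endonuclease LAS1L with the RNA kinase NOL9, which work with PELP1, TEX10, WDR18 and the SUMO protease SENP3. Of these 6 genes 3 rose and 0 fell, and the median of 0.13 was under that of the whole set. TEX10 had 2168, 2222, 2185 and 2172 scaled counts in knockdown libraries, against 1734, 1631, 1606 and 1600 in controls (log2 fold change 0.41 ± 0.0371 SE, adjusted p = 5.16e-14). NOL9 rose by 0.29 and SENP3 by 0.20, the last with 41.2% of its exon bases shared with the read-through gene SENP3-EIF4A1. LAS1L had 1747, 1654, 1782 and 1803 in knockdown libraries, against 1828, 1839, 1818 and 1777 in controls, a log2 fold change of -0.06 that missed the threshold (adjusted p = 0.184). Neither PELP1 (log2 fold change 0.04, adjusted p = 0.327) nor WDR18 (0.06, adjusted p = 0.247) passed. Ratios within libraries separated the partners: TEX10 over PELP1 was 0.415 to 0.442 in knockdown and 0.325 to 0.338 in control libraries, and NOL9 over LAS1L was 0.161 to 0.194 in knockdown and 0.129 to 0.150 in control libraries. SENP3 over PELP1 was also higher in every knockdown library (0.0804 to 0.0898) than in any control library (0.0747 to 0.0796). Each of these 3 ratios had an adjusted p of 0.0429 (two-sided exact permutation test), while WDR18 over PELP1 overlapped (p = 0.571 by the same permutation test).

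Among the proteins that strip factors off the particle, NVL and MDN1 rose and NLE1 did not pass. NVL, an AAA ATPase and counterpart of yeast Rix7, had 674, 639, 716 and 636 scaled counts in knockdown libraries, against 500, 500, 464 and 551 in controls (log2 fold change 0.40 ± 0.0545 SE, adjusted p = 7.38e-09). MDN1, a very large ATPase also called midasin, averaged 8964 ± 585 in knockdown and 8187 ± 305 in control libraries (SD, n = 4 each), with overlap between the groups (log2 fold change 0.13, adjusted p = 0.00171). NLE1, the partner that midasin pulls on, had 739, 713, 718 and 723 in knockdown and 736, 704, 662 and 713 in control libraries (log2 fold change 0.04, adjusted p = 0.465).

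Factors of nuclear maturation, export and release moved both ways, 4 higher and 2 lower. MRTO4, counterpart of yeast Mrt4 and a placeholder for the stalk protein RPLP0, had 1523, 1461, 1512 and 1496 scaled counts in knockdown libraries, against 800, 814, 830 and 840 in controls. MRTO4 (chromosome 1, 19251539 to 19260128, plus strand) was 82.4% higher, with a log2 fold change of 0.87 ± 0.0409 SE and the smallest adjusted p of the set (1.60e-24). LSG1, the cytoplasmic GTPase that releases NMD3, rose by 0.41, EIF6, which keeps the subunits from joining, by 0.38 and NSA2 by 0.17, with 58.7% of its exon bases shared, mostly with FAM169A on the other strand. RSL24D1, a placeholder for RPL24 (chromosome 15, 55180806 to 55197067, minus strand), had 1997, 2216, 2100 and 2060 in knockdown libraries, against 2384, 2428, 2526 and 2406 in controls. It was the one gene whose knockdown libraries were all below the controls, 14.1% lower in the mean (log2 fold change -0.22 ± 0.0369 SE, adjusted p = 9.81e-07). NMD3, the adaptor to the exportin XPO1, had 739, 785, 683 and 848 in knockdown libraries, against 861, 883, 841 and 843 in controls. One knockdown library lay within the control range, and the mean was 10.9% lower (log2 fold change -0.17 ± 0.0503 SE, adjusted p = 0.00280). LSG1 and NMD3 thus moved apart: LSG1 over NMD3 was 1.48 to 1.88 in knockdown and 1.03 to 1.12 in control libraries (exact permutation p = 0.0286; adjusted p = 0.0429).

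**Figure D3:**
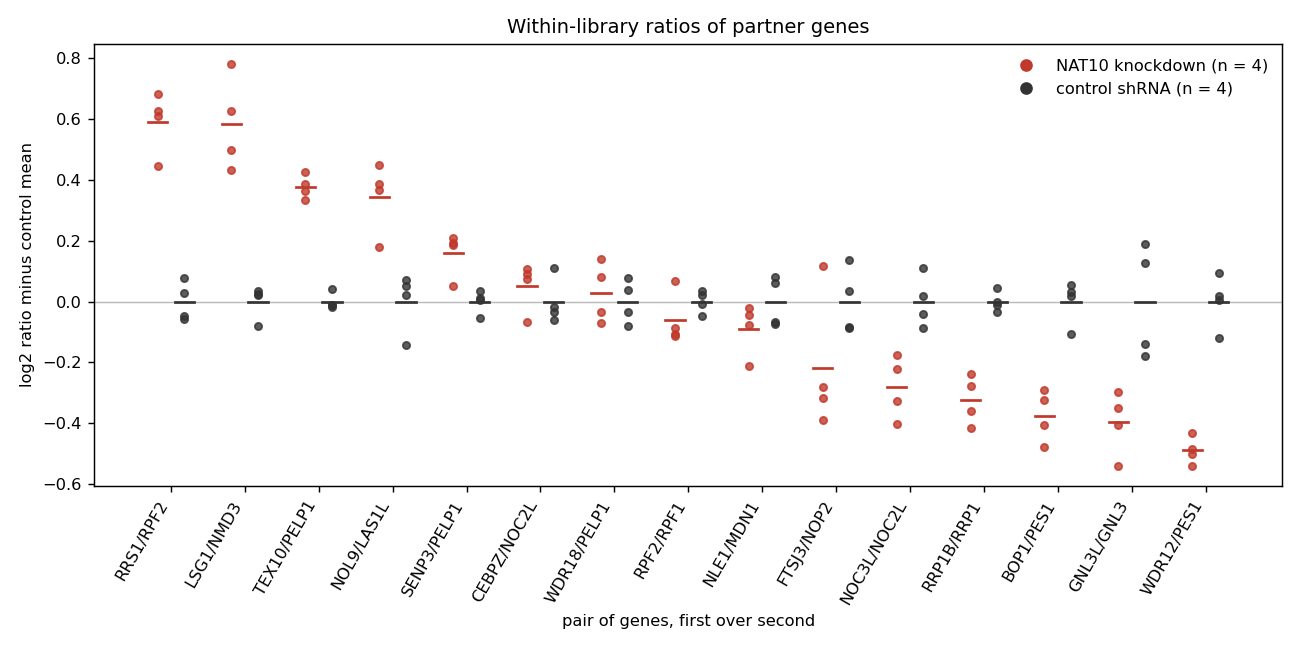
Within-library log2 ratios of 15 pairs of assembly factors that share a complex, a step or an origin, each set to the mean of the control libraries; points are libraries and short lines group means. For 10 pairs the groups did not overlap, 5 higher and 5 lower in knockdown, from 0.59 for RRS1/RPF2 to -0.49 for WDR12/PES1. Taken singly, 56.7% of all genes did not overlap between groups.

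Of the 15 ratios, 10 passed at an adjusted p of 0.0429 (exact permutation test), 5 of them higher and 5 lower in knockdown libraries. All 10 had the smallest p that this test of 4 against 4 libraries can give (0.0286). The adjusted p of each therefore rests on how many pairs reached that p, and does not rank the pairs. These are the pairs whose groups did not overlap, and the share among other pairs of genes was not computed. Of all genes taken singly, 56.7% did not overlap between groups, so the count of 10 is not a result about partners. The other 2 such ratios were RRP1B over RRP1 (1.81 to 2.05 in knockdown, 2.36 to 2.49 in controls) and NOC3L over NOC2L (0.233 to 0.272 in knockdown, 0.289 to 0.332 in controls). The 5 that did not pass were RPF2 over RPF1, CEBPZ over NOC2L, WDR18 over PELP1, FTSJ3 over NOP2 and NLE1 over MDN1, with log2 differences between -0.22 and 0.05. A p above the threshold does not show that these partners moved alike.

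Per kilobase of exon, the assembly factors sat high among the genes of the table: 34 of 47 were above the 75th percentile of the 17225 genes with a length in GENCODE 29, and the median gene was at the 86.5th percentile. EIF6 was highest, at 1782 ± 83.2 scaled counts per kb in knockdown and 1366 ± 71.1 in control libraries (SD, n = 4 each). GNL3 followed with 1379 ± 49.4 in knockdown and 1068 ± 11.5 in control libraries. Next in control libraries stood RSL24D1, with 696 ± 30.5 in knockdown and 810 ± 20.8 in control libraries, while CEBPZ, at 945 ± 9.19 in knockdown and 771 ± 24.1 in control libraries, was above it in knockdown libraries. In control libraries CEBPZ and PELP1 (759 ± 14.3) did not differ beyond their spread, nor did BOP1 (560 ± 18.6), PES1 (541 ± 17.0) and WDR18 (536 ± 32.8). At the low end stood NOL9 (43.2 ± 2.31 in knockdown, 35.4 ± 2.46 in control) and NOP2 (14.7 ± 2.22 in knockdown, 9.46 ± 0.464 in control). Exon length here is the union of all annotated exons, so genes with rarely used long exons are placed too low.

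**Figure D4:**
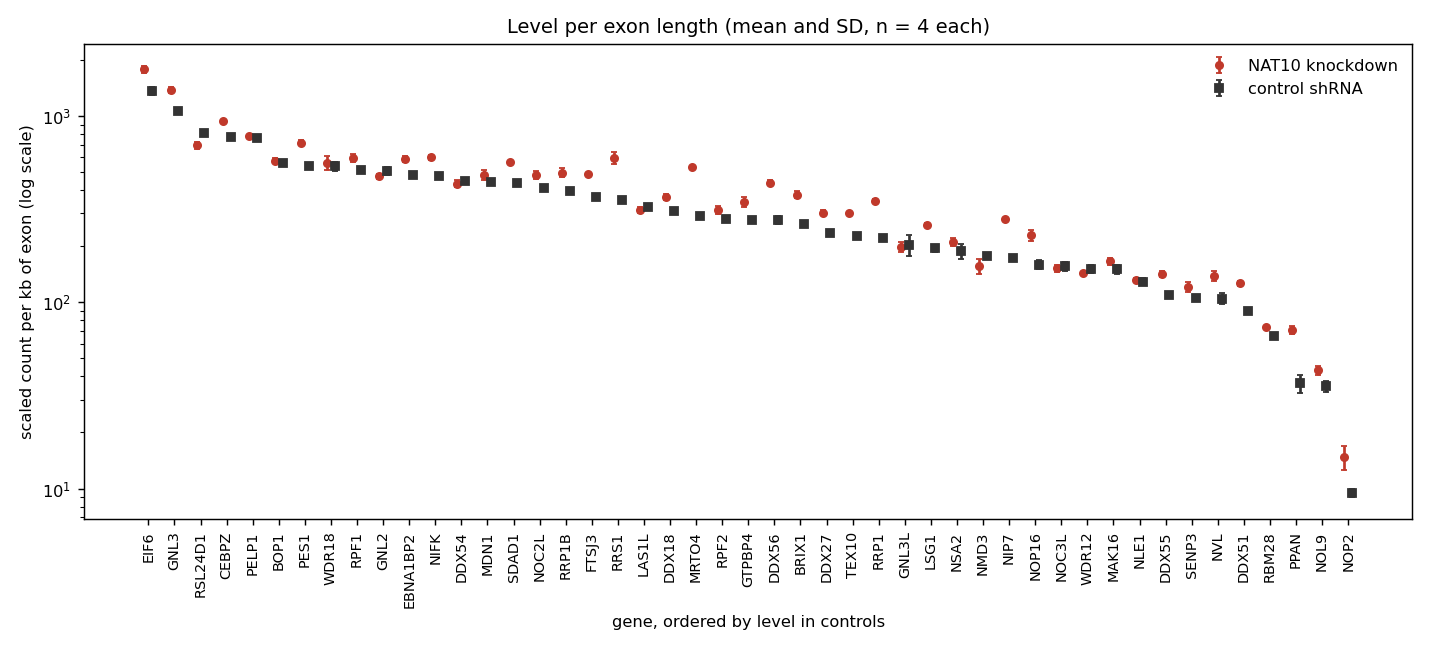
Scaled counts per kilobase of exon on a log axis for the 47 genes, in order of the control level; points are means and bars SD of 4 libraries. EIF6 (1782 in knockdown, 1366 in control) and GNL3 stand at the top, and PPAN, NOL9 and NOP2 at the bottom.

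Other genes of large-subunit biogenesis came from a list of 30, of which 29 were measured. They counted 20 higher and 4 lower, against 32.3% and 32.4% of all genes, with a median log2 fold change of 0.21. The largest rises among them were in RBM34 (0.85 ± 0.246 SE, at 22.5 and 11.9 scaled counts in knockdown and control libraries), RPL7L1 (0.81 ± 0.0388) and AFG2B, an ATPase of cytoplasmic maturation (0.75 ± 0.0807). NOL12 (-0.59 ± 0.108), the release GTPase EFL1 (-0.23 ± 0.0467) and the release cochaperone DNAJC21 (-0.12 ± 0.0452) showed the largest decreases, with adjusted p-values of 4.61e-06, 3.51e-05 and 0.0195. Over the alternative fits the adjusted p of DNAJC21 reached 0.204.

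For comparison, 40 of 50 small-subunit processome and maturation genes were higher in knockdown cells and 1 was lower. Their median, 0.29, equalled that of the large-subunit factors to 2 decimals. Large-subunit ribosomal protein genes counted 20 higher and 2 lower of 46 with a median of 0.11, and the RNA polymerase I machinery 8 higher and 1 lower of 18 with a median of 0.11. The 13 reference genes had a median of 0.02, with 5 higher and 3 lower. Over all genes 32.3% were higher and 32.4% lower. With read totals as the scaling the other large-subunit genes counted 15 higher and 6 lower with a median of 0.099. The remaining medians became 0.19 for small-subunit genes, 0.0007 for ribosomal protein genes, 0.00034 for the polymerase I genes and -0.09 for reference genes. Differences between lists were not tested.

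**Figure D5:**
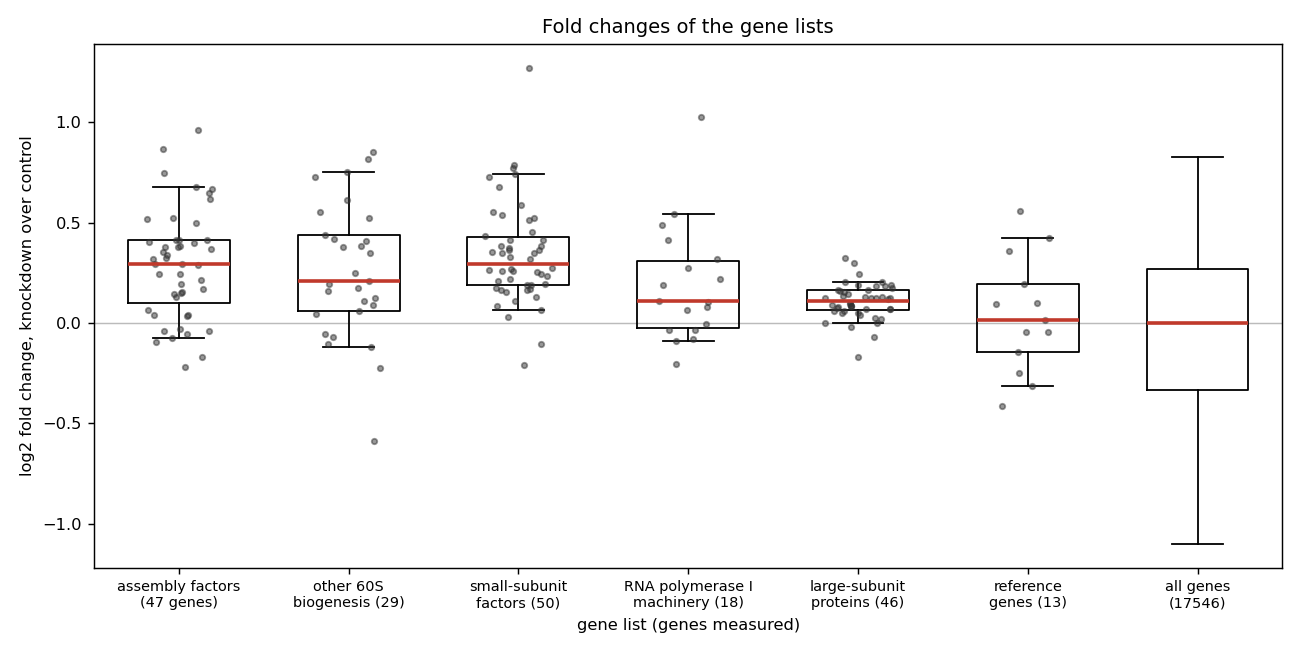
Log2 fold changes of the assembly factors, of 5 other lists and of all genes; red lines are medians, boxes the quartiles, whiskers the 5th to 95th percentiles and points single genes. The box of the assembly factors runs from 0.10 to 0.41, against -0.34 to 0.27 for all genes.

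The 47 genes lie on 19 chromosomes. Of them 3, PPAN, GNL3 and DDX55, hold snoRNA genes within their bounds, 6 in GNL3 alone. In 14 genes over 10% of the exon bases are shared with another annotated gene. Among the 33 others 22 rose and 3 fell, with a median of 0.25. GENCODE 29 names 41 pseudogenes after members, of which 6 are in the table. The 6 are copies of NOC2L, BRIX1, SDAD1 and RPF2, which rose. RSL24D1, NMD3 and GNL2, the 3 genes that fell, each have at least 1 named copy, none of them in the table. RSL24D1 has the most named copies of any member. Genes that rose have such copies too, among them NIFK, DDX18 and NIP7. The part of reads shared with these copies was not tested.

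Because so many members moved the same way, the 250 bases upstream of their RefSeq start sites were searched for short motifs. RefSeq windows on GRCh38.p14 were matched by symbol for 41 of the 47 genes (6 of them with 2 starts), and not for MAK16, DDX18, RPF2, BOP1, RRP1B and RRS1. On both strands, 8 motifs were searched. CCGGAAGT, the core bound by ETS factors, was in the windows of 12 of 41 genes (29.3%), against 7.42% of the 11970 genes of the table with a window and 4.13% of all 27305 genes with one. The E-box CACGTG, bound by MYC with MAX among others, was in 6 of 41 (14.6%, against 10.8% of the genes of the table). GGGGCGGG was in 10 (24.4%, against 43.3%), TATAAA in 1 (2.44%, against 8.15%), GCGCATGC in 3 (7.32%, against 5.30%), TGACGTCA in 2 (4.88%, against 3.30%), AAGATGGC in 1 (2.44%, against 2.26%) and TCTCGCGA in 2 (4.88%, against 2.29%). No match overlapped a match to another motif. Of the 12 genes with CCGGAAGT 9 rose, and of the 29 without it 21 rose, with median log2 fold changes of 0.27 and 0.36. A match describes letters and is not a binding site.

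The windows below show CCGGAAGT or its reverse complement ACTTCCGG in capitals in genes of differing response: PPAN and DDX56 rose, NOC3L did not pass and RSL24D1 fell. The window of MRTO4, which rose without a match, is last. Each reads 5′ to 3′ on the strand of the gene and ends at the base before the RefSeq start; positions are PPAN chr19:10106112-10106361 (plus), DDX56 chr7:44573909-44574158 (minus), NOC3L chr10:94362940-94363189 (minus), RSL24D1 chr15:55196942-55197191 (minus) and MRTO4 chr1:19251555-19251804 (plus).
PPAN: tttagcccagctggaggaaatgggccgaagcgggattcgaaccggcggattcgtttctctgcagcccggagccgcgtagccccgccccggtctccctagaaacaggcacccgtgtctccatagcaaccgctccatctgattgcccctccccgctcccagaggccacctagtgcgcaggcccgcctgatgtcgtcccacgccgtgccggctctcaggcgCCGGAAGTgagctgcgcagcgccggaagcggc
DDX56: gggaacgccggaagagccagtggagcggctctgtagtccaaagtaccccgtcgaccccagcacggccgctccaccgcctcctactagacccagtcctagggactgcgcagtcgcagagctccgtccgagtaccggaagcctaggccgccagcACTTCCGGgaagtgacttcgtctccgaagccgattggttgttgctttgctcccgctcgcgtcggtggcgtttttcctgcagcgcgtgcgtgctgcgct
NOC3L: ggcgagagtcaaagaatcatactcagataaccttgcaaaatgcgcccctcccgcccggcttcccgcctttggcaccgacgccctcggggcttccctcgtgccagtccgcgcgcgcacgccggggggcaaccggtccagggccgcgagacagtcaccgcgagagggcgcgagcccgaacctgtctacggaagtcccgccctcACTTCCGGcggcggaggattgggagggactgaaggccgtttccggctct
RSL24D1: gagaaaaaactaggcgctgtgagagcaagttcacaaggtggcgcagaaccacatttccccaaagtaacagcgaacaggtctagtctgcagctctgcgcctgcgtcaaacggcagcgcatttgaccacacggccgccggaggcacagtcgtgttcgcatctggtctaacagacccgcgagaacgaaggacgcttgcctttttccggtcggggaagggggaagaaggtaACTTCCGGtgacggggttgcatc
MRTO4: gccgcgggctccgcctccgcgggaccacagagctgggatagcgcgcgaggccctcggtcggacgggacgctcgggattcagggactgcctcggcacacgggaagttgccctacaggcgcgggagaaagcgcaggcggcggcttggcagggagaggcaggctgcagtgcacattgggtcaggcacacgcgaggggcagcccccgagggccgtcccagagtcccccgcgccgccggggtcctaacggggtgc

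The match begins 32 bases before the start in PPAN, 98 in DDX56, 49 in NOC3L and 23 in RSL24D1. A second RefSeq start of PPAN has no match in its window. The match reads CCGGAAGT on the strand of the gene in PPAN and lies on the other strand in the remaining 3.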

How the data were processed

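Sample titles gave group and replicate number. The submitters' processing notes name featureCounts 2.0.3, HISAT2 2.2.1, DESeq2 1.26.0, SAMtools 1.12, fastp 0.21.1 and hg38, with no order or role. Which annotation and strand setting served is not given in the sources used here. What the authors deposited is a signal, each library's read counts over its size factor: in every library 100% of values multiplied back to whole reads (tolerance 1e-06 reads). Size factors ran from 0.971 to 1.04 and equalled those that median-of-ratios gave for the table. All genes reach 10 reads in 4 or more libraries; weaker genes were not analysed here.

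limma 3.58.1 (trended, robust) in R 4.3.3 was fitted to log2(value + 1) of all 17546 genes on group alone, with Benjamini-Hochberg adjusted p-values called below 0.05. Fold changes on this scale understate changes of low genes. On the recovered reads, edgeR 4.0.16 (17410 genes) called 5571 genes higher and 5784 lower, and 35 and 3 of the 47; limma called 5667 and 5680. Partner ratios used exact permutation tests (scipy 1.17.1). Alternatives were other scalings, DESeq2 1.42.0, voom, pseudocounts of 0.5 and 5, a minimum of 5 CPM, a replicate block, each library left out and a threshold of 0.01. On simulated data (17546 genes), limma found 32 of 50 changes of 1.25-fold, 37 of 50 of 1.5-fold, 46 of 50 of 2-fold and 50 of 50 of 4-fold, with 12 false calls. In the simulation 17346 genes did not change, whereas in the data only 6199 did not pass. These rates therefore need not hold for the data or for the members. With 0 reads, the shallowest library would leave room for 0.193 CPM (3 reads, counting error only); the lowest count of a member was 42 reads. Pairs of libraries differed by a chi-square per gene of 1.79 to 2.52 inside a group and of 28.1 to 29.1 across groups. No library was therefore counted as a second read of another. These values cannot show whether the libraries of a group came from separate cultures. The common coefficient of variation that edgeR fitted beyond counting error was 3.33%.

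Members, lists, role groups and pairs were chosen with earlier results of these data known, and the motifs after the fold changes were seen. Values in every library are given for the genes with the largest and smallest log2 fold change of each role group, those that fell and those that changed by at least 0.7; of the other large-subunit genes, the 3 largest and 3 smallest changes that passed. Genes outside this rule are given by fold change or level. Of the IDs, 17532 had a symbol. Positions and exon lengths are from GENCODE 29 (GRCh38, as hg38). Figures were drawn with matplotlib 3.10.9.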

Additional observations from a re-analysis of the deposited data

Results flagged for a closer look

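Among 96 sets of 4 libraries (NAT10 and the 47 assembly factors in each group), 4 held a library far from the other 3; chance gives about 1 in 20. NIFK was at 1392 scaled counts in knockdown replicate 1, against 1483 to 1499 in the other knockdown libraries. NOL9 was at 290.3 in knockdown replicate 4, against 321 to 326. CEBPZ was at 2930 in control replicate 3, against 2751 to 2758 in the other control libraries, and BRIX1 at 1240.4 in control replicate 1, against 1336 to 1346. The lone values fell in 4 different libraries, and each of the 4 genes was still called higher without any one library.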

How the results depend on the processing

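Of the 47 genes, 34 to 35 were called higher and 2 to 4 lower when each library was left out in turn. Scaling by read totals moved most: of the assembly factors 8 were lower and the median became 0.18; 3 small-subunit genes were lower, 4 polymerase I genes higher and 6 lower, 4 ribosomal protein genes higher and 8 lower, and 5 reference genes lower; other large-subunit genes counted 15 higher and 6 lower. Under it the signs of BOP1 (-0.071), PELP1 (-0.073, limma adjusted p = 0.0358), WDR18 (-0.044) and NLE1 (-0.068) reversed. At a threshold of 0.01, 2 other large-subunit genes were lower, and 13 ribosomal protein genes higher and 1 lower. With a replicate block 35 assembly factors rose and 3 fell, and 1 ribosomal protein gene was lower, as with DESeq2. Deviations of libraries with the same number had r = -0.0107, -0.0376, -0.0268 and -0.133, against -0.161 to 0.163 for differing numbers. These values gave no sign of pairing, but they cannot show whether libraries with the same number shared a batch. Without single libraries, genes called lower numbered 2 to 5 (other large-subunit), 1 to 2 (small-subunit), 1 to 2 (polymerase I) and 1 to 2 (ribosomal protein), the log2 fold change of GNL3L ran from -0.093 to 0.031 (above 0 without knockdown replicate 1, control replicate 1 or control replicate 2) and the log2 difference of WDR18/PELP1 from -0.0078 (without knockdown replicate 3) to 0.062, and MAK16 lost its call (adjusted p = 0.0625 without control replicate 4). Leaving out genes with over 10% shared exon bases, chosen after seeing the data, left 22 higher and 3 lower of 33, median 0.25. All 47 genes gave 35 higher and 3 lower, median 0.29, and over all genes 32.3% were higher and 32.4% lower. The cause of these shifts was not tested. Counts as low as those of NOP2 and PPAN limit precision.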
